A study of Mus musculus with 6 samples.

Results

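A set of 10 genes that control the transcription of mitochondrial and fatty acid oxidation genes was followed in Atf3 high and Atf3 low areas of hearts with *Ndufs6* knockdown (FS6KD). The 10 genes were taken by name from the 17145 genes of the deposited count table: the coactivators *Ppargc1a*, *Ppargc1b* and *Perm1*, the estrogen-related receptors *Esrra*, *Esrrb* and *Esrrg*, the fatty acid sensing receptor *Ppara*, the nuclear respiratory factors *Nrf1* and *Gabpa*, and the mitochondrial transcription factor *Tfam*. All 10 were in the table, with 449 UMIs (unique molecular identifiers, each marking 1 captured RNA molecule) over the 6 libraries. Of these UMIs, *Ppargc1a* had 168 and *Perm1* had 145, together 69.7%, and the other 8 genes shared 136. Of the 10, 8 had at least 10 UMIs in all and were tested. *Esrra*, with 2 UMIs, and *Ppara*, with 3, had too few.

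Photo-isolation chemistry (PIC) copies the RNA of a tissue section into cDNA in place with light-sensitive primers, and only the area lit by ultraviolet light goes on to sequencing. Areas were chosen by immunostaining for Atf3 protein, a stress-induced transcription factor of the ATF/CREB family, and 3 Atf3_high and 3 Atf3_low libraries were made from lit areas of FS6KD hearts. Per the paper, both kinds of cardiomyocyte lay inside Atf3-positive clusters, so Atf3_low means a lower level of Atf3 and not its absence. Both groups carry the same alleles, a gene trap in *Ndufs6* (a complex I subunit) whose knockdown is strongest in the heart, and both are labelled female, heart and cardiomyocytes. No wild-type area and no untreated control is among the libraries, so the comparison is between areas of diseased hearts and not between disease and health, and the labels give no age. The paper counts the 3 libraries of a group as biological replicates, but the labels do not say which mice they came from, so the p-values measure the spread between these libraries.

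PGC-1alpha, the product of *Ppargc1a*, binds no DNA itself. It is recruited by receptors such as the estrogen-related receptors and PPAR alpha, and through them raises the transcription of genes for the respiratory chain and fatty acid oxidation, while NRF-1 and GABP drive nuclear genes of mitochondria, among them *Tfam*, whose product binds mitochondrial DNA and starts its transcription. In heart muscle, which depends on oxidative metabolism, *Ppargc1a* responds to energy demand, and its promoter is known for a cAMP response element bound by ATF/CREB factors. The comparison asks whether the areas with more Atf3 protein held less *Ppargc1a* RNA, and whether the partners of PGC-1alpha moved with it. From its PIC data the paper reported less *Ppargc1a* in cells with high Atf3, by a two-tailed t test. The *Ppargc1a* values given here revisit that comparison and are no independent finding.

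The libraries held 81117 to 210588 UMIs. Counting error alone did not account for the spread within either group, with a chi-square per degree of freedom of 3.55 to 5.07 over the pairs. *Atf3* RNA did not separate the groups, with 254, 84.5 and 116 CPM in the Atf3_high libraries and 236, 0 and 109 CPM in the Atf3_low libraries (CPM, counts per 1e6 UMIs after TMM scaling). *Ndufs6* had 5 UMIs in all, 2, 0 and 3 in the Atf3_high libraries and 0 in each Atf3_low library. The second Atf3_high library goes against its female label, with 16 UMIs from the Y chromosome (*Ddx3y* together with *Eif2s3y*) and 0 of *Xist*, whereas the other 5 libraries held 0 to 1 and 3 to 26. Of the 12 cardiomyocyte markers, 11 were lower in the Atf3_high libraries, with a median log2 fold change of −0.47 and a summed level of 24613 to 47334 CPM against 46584 to 62771 CPM. *Myh6*, the adult heart myosin heavy chain, was among them at 1992, 2595 and 4546 CPM against 10694, 9060 and 12244 CPM. It had the largest fall of the 12 and was the only 1 called, at −1.81 (edgeR adjusted p = 0.00512). *Myh7*, the marker that was not lower, stood at 0.30. All 9 fibroblast markers were higher, with a median of 0.97 and a summed level of 1132 to 5290 CPM against 572 to 2662 CPM. None of the 5 adipocyte markers was in the table. The endothelial, macrophage and mural cell sums overlapped between the groups, as the cardiomyocyte and fibroblast sums did. Of the mural cell markers tested, 6 of 7 were higher, with a median of 0.72. For endothelial markers 5 of 9 were higher (median 0.07), and for macrophage markers 3 of 7 (median −0.08). In such areas, fewer cells of a type and less RNA per cell cannot be told apart.

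The levels of all 10 genes in every library are shown first.

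**Figure D1:**
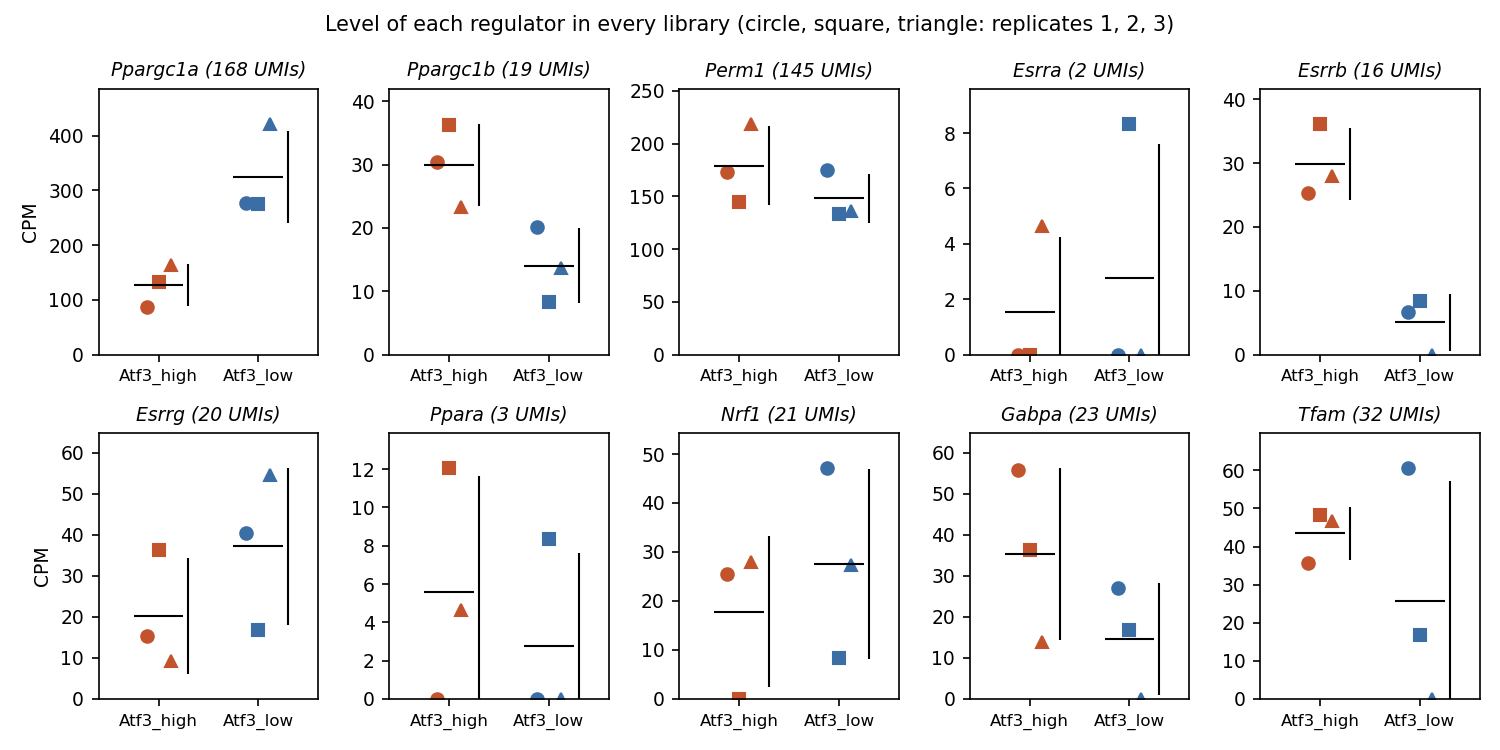
Level of each of the 10 regulators in every library, in CPM on a linear axis that starts at 0 and differs between panels. Circles, squares and triangles are replicates 1, 2 and 3, horizontal lines are means, and vertical lines are 1 SD on each side, drawn no lower than 0. The 3 Atf3_high libraries of *Ppargc1a* sit between 86.4 and 163 CPM, all below the Atf3_low libraries at 275 to 422 CPM.

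*Ppargc1a* was the gene of the 10 with the clearest separation. Its UMIs were 17, 11 and 35 in the Atf3_high libraries and 41, 33 and 31 in the Atf3_low libraries. After scaling, these were 86.4, 133 and 163 CPM against 276, 275 and 422 CPM. All 3 Atf3_high libraries were below all 3 Atf3_low libraries, and the highest Atf3_low library was the third. The means were 127 ± 38.6 CPM and 325 ± 84.5 CPM (SD, n = 3 each). The log2 fold change in edgeR was −1.33 with an SE of 0.48 and a 95% interval of −2.30 to −0.36, a fitted level in Atf3_high areas 0.397 times that in Atf3_low areas. The unadjusted p was 0.00846, which ranked 95th of the 7665 genes tested, and it did not pass Benjamini-Hochberg adjustment over them (edgeR adjusted p = 0.649). A two-sided exact permutation test over the libraries gave p = 0.1, the smallest that 3 against 3 allows. Without the second Atf3_high library, the one with Y-linked RNA, the log2 fold change was −1.37 (edgeR unadjusted p = 0.0149).

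The cardiomyocyte marker sum was lower on the same side as *Ppargc1a*, and the size of the *Ppargc1a* difference changed when it was scaled to that sum. Per 1000 UMIs of the 12 cardiomyocyte markers, *Ppargc1a* had 3.51, 5.18 and 3.44 UMIs in the Atf3_high libraries and 5.93, 5.16 and 6.73 in the Atf3_low libraries. On this scale the groups overlapped, since the second Atf3_high library lay just above the second Atf3_low library, and the exact permutation test gave p = 0.2. An edgeR fit scaled to these markers, chosen after their sums had been seen, gave a log2 fold change of −0.58 with an interval of −1.78 to 0.61 (unadjusted p = 0.338). With *Myh6* left out of the marker sum it was −0.76 with an interval of −1.96 to 0.44. That scaling moved the median over all genes tested to 0.87, or 0.70 without *Myh6*, from 0.11. Relative to the median gene, *Ppargc1a* stood at −1.44 in the TMM fit and at −1.46 in both marker fits. A change of scaling moves all genes by nearly the same amount, so these values were bound to be close. They therefore say nothing of the cardiomyocyte content. The part of the cardiomyocyte content in the *Ppargc1a* difference was not tested.

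The *Ppargc1a* gene lies on the minus strand of chr5:51454250-51567726 (GRCm38, GENCODE). GENCODE lists 5 transcript starts for the gene, and 1 RefSeq window was searched, 250 bases before to 50 after one start, at chr5:51567676-51567975. It is printed because the study asks about Atf3, which binds ATF elements. The capitals mark the one match among the motifs searched, the first 6 bases of the ATF element, TGACGT, on the opposite strand.

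*Ppargc1a* promoter: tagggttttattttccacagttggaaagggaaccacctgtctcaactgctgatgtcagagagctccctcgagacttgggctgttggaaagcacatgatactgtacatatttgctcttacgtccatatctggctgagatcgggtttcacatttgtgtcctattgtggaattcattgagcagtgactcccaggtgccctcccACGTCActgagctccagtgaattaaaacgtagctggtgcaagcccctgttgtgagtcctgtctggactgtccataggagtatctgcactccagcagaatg

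The capitals begin 50 bases before the transcript start. The whole 8-base element TGACGTCA was not in this window, which says nothing of the sequence around the other starts or further from this one. The paper places this element in the mouse *Ppargc1a* promoter, upstream of a start and within the reach of a window of this length. Which of the transcript starts the paper counts from was not tested. The paper also reports that Atf3 repressed a reporter with a longer piece of the *Ppargc1a* promoter. The absence of the element is thus a statement about this window only. The first 6 bases, which are part of the whole element, were in 7.51% of the 32851 RefSeq mouse windows of this length, searched on both strands, and the whole element in 1.79%. A match of letters is a description of the window and not a binding site, and sequence outside this window was not analysed here. The *Ppargc1a* gene also holds 4 GENCODE genes of unsettled status within its span, with 2, 8, 4 and 7 UMIs of their own. The one with 4 UMIs lies on the opposite strand.

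*Perm1*, a muscle coregulator that is induced by PGC-1 and the estrogen-related receptors and acts with them, did not follow *Ppargc1a*. It had 34, 12 and 47 UMIs in the Atf3_high libraries and 26, 16 and 10 in the Atf3_low libraries. Its levels were 173, 145 and 219 CPM against 175, 133 and 136 CPM, and the groups overlapped. The means were 179 ± 37.4 and 148 ± 23.3 CPM (SD, n = 3 each). The log2 fold change was 0.28 with an SE of 0.50 and an interval of −0.74 to 1.29 (edgeR adjusted p = 0.996). It was 0.094 without the third Atf3_high library and 0.16 without the second Atf3_low library. The interval leaves room for a fall to 0.601 times or a rise to 2.44 times, so a change of moderate size was not detectable at this depth. Scaled to the cardiomyocyte markers, *Perm1* had 7.02, 5.65 and 4.63 UMIs per 1000 marker UMIs against 3.76, 2.50 and 2.17, where the groups did not overlap, and that fit gave 1.02 with an interval of −0.22 to 2.25. None of the motifs searched was in the RefSeq window of *Perm1*, chr4:156215677-156215976 on the plus strand.

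The ratio of *Ppargc1a* to *Perm1* within a library needs no scaling between libraries. It was 0.50, 0.917 and 0.745 in the Atf3_high libraries and 1.58, 2.06 and 3.10 in the Atf3_low libraries, so every Atf3_high library held fewer *Ppargc1a* than *Perm1* UMIs and every Atf3_low library held more. The difference between the group means of the log2 ratio was −1.63 (two-sided exact permutation p = 0.1, the smallest possible), and it ranged from −1.86 to −1.37 when each library was left out. The ratio was chosen after the values of both genes had been seen, and the difference is a description. Over the 6 libraries the levels of *Ppargc1a* and *Perm1* had a Pearson r of −0.43 on the log2(CPM + 4) scale.

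**Figure D2:**
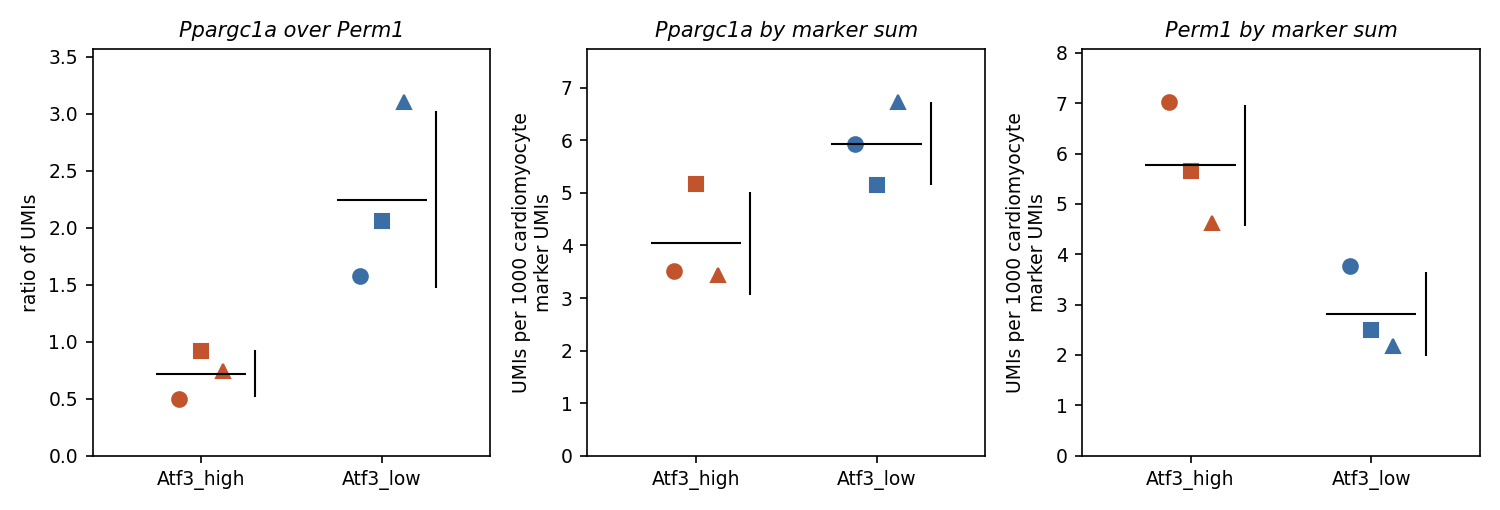
Left, ratio of *Ppargc1a* to *Perm1* UMIs in each library. Middle and right, UMIs of *Ppargc1a* and of *Perm1* per 1000 UMIs of the 12 cardiomyocyte markers. Symbols are replicates 1 to 3 (circle, square, triangle), lines the mean and 1 SD on each side, and axes start at 0. The ratio is 0.50 to 0.917 in Atf3_high and 1.58 to 3.10 in Atf3_low libraries, *Ppargc1a* by marker sum overlaps between the groups, and *Perm1* by marker sum does not.

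*Ppargc1b* encodes PGC-1beta, the close relative of PGC-1alpha that coactivates many of the same receptors. It had 6, 3 and 5 UMIs in the Atf3_high libraries and 3, 1 and 1 in the Atf3_low libraries. The levels were 30.5, 36.2 and 23.3 CPM against 20.2, 8.34 and 13.6 CPM, without overlap and in the direction opposite to *Ppargc1a*. The log2 fold change of 0.99 had an SE of 1.13 and an interval of −1.29 to 3.27, so the direction was not resolved (edgeR adjusted p = 0.996). Of the 19 UMIs, 14 were in the Atf3_high libraries, which alone would have carried the gene past the minimum of 10. The share of *Ppargc1b* among the UMIs of both PGC-1 genes was 26.1%, 21.4% and 12.5% in the Atf3_high libraries and 6.82%, 2.94% and 3.13% in the Atf3_low libraries, a ratio chosen after the values were seen.

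The estrogen-related receptors are nuclear receptors without a known natural ligand that bind PGC-1 at the promoters of respiratory chain genes. *Esrrb* had 5, 3 and 6 UMIs in the Atf3_high libraries and 1, 1 and 0 in the Atf3_low libraries. This was 25.4, 36.2 and 27.9 CPM against 6.74, 8.34 and 0 CPM, again without overlap. The log2 fold change was 2.20 with an SE of 1.33 and an interval of −0.47 to 4.88 (edgeR unadjusted p = 0.104, adjusted p = 0.964). The 14 UMIs of the Atf3_high libraries alone put *Esrrb* past the minimum, so its being tested was tied to its being higher there. In the fit scaled to the cardiomyocyte markers its unadjusted p was 0.041 (adjusted p = 0.347), and without *Myh6* in the sum it was 0.055.

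*Esrrg*, the receptor known for oxidative genes in the heart after birth, had 3, 3 and 2 UMIs in the Atf3_high libraries and 6, 2 and 4 in the Atf3_low libraries. Its levels were 15.2, 36.2 and 9.32 CPM against 40.4, 16.7 and 54.5 CPM, which overlapped, and the log2 fold change was −0.96 with an interval of −3.11 to 1.18. It was −1.52 without the second Atf3_high library, −0.59 without the third, and −0.10 in the fit scaled to the cardiomyocyte markers. The 12 UMIs of the Atf3_low libraries alone put *Esrrg* past the minimum, so its being tested was tied to its being higher there. *Esrra*, the family member usually abundant in heart, had 0, 0 and 1 UMIs in the Atf3_high libraries and 0, 1 and 0 in the Atf3_low libraries. The end of *Esrra* overlaps *Trmt112* on the opposite strand, which itself had 1 UMI. *Ppara*, the fatty acid sensing receptor that switches on genes of fatty acid oxidation, had 0, 1 and 1 UMIs against 0, 1 and 0. For a gene at 0 UMIs, 3 counts are allowed, which is 14.0 CPM in the deepest library and 40.9 CPM in the shallowest by scaled size, so *Esrra* and *Ppara* are below the level these libraries can compare. These limits cover counting error only.

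*Nrf1*, nuclear respiratory factor 1, had 5, 0 and 6 UMIs in the Atf3_high libraries and 7, 1 and 2 in the Atf3_low libraries. The levels of 25.4, 0 and 27.9 CPM against 47.2, 8.34 and 27.2 CPM overlapped, and the log2 fold change was −0.48 with an interval of −2.69 to 1.74. Its sign turned when the first Atf3_low library was left out (0.21), when all libraries were thinned to the shallowest (0.022) and in the fit scaled to all 12 cardiomyocyte markers (0.15).

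*Gabpa*, the DNA-binding subunit of GABP (also called NRF-2), had 11, 3 and 3 UMIs against 4, 2 and 0. Its levels were 55.9, 36.2 and 14.0 CPM in the Atf3_high libraries and 27.0, 16.7 and 0 CPM in the Atf3_low libraries, with overlap, and the log2 fold change was 1.07 with an interval of −1.14 to 3.28. The 17 UMIs of the Atf3_high libraries alone put *Gabpa* past the minimum, so its being tested was tied to its being higher there. The start of *Gabpa* overlaps *Atp5j* on the opposite strand, which had 434 UMIs. The value was 0.51 without the first Atf3_high library, 0.62 without the third Atf3_low library and 1.72 without the first. *Tfam* had 7, 4 and 10 UMIs against 9, 2 and 0, or 35.6, 48.3 and 46.6 CPM against 60.6, 16.7 and 0 CPM. The Atf3_high libraries of *Tfam* lay close together and inside the spread of the Atf3_low libraries, and the log2 fold change was 0.57 with an interval of −1.35 to 2.50. Leaving out the first Atf3_low library gave 2.00, leaving out the second 0.26 and leaving out the third 0.091.

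**Figure D3:**
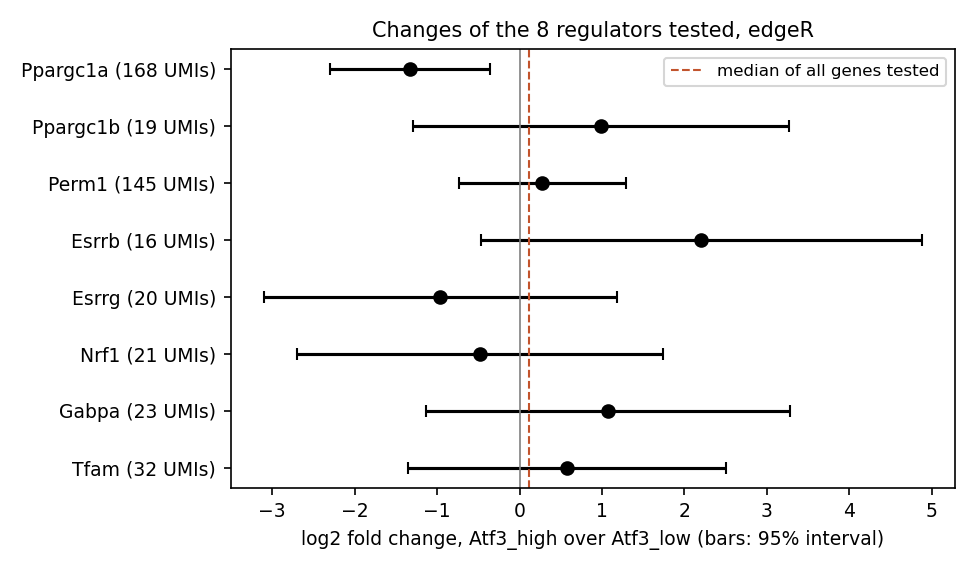
Log2 fold change of Atf3_high over Atf3_low for the 8 regulators tested, with 95% intervals from edgeR, ordered by role. The solid line marks no change and the dashed line the median of all genes tested, 0.11. The interval of *Ppargc1a*, −2.30 to −0.36, is the only one of the 8 that does not reach 0.

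Read against all genes, the counts of members were small. At an adjusted p of 0.05, 0 of the 8 were called in edgeR, where 0.0913% of all genes tested were (7 of 7665). At an unadjusted p under 0.05, 1 member was lower in Atf3_high areas, where 2.24% of all genes were, and 0 were higher, where 3.55% were. DESeq2 and limma also called 0 members. Without overlap between the groups, 1 member was lower, *Ppargc1a*, where 3.89% of all genes were, and 2 were higher, *Ppargc1b* and *Esrrb*, where 7.07% were. With 8 genes these counts are too few to set apart from the background. Values were above 0 for 5 of the 8 and below for 3, with a median of 0.42, where 55.2% of all genes tested were above 0. *Ppargc1b*, *Esrrb* and *Gabpa* were tested only through the Atf3_high libraries, and *Esrrg* only through the Atf3_low libraries. These directions and the median are thus tied in part to the filter. The median was 0.11 for all genes tested and 0.20 for those with 10 to 32 UMIs, the range of 6 of the 8. The median of the 8 ran from 0.15 without the third Atf3_low library to 0.87 without the first, and it was −0.53 with filterByExpr, which tested only 2 of them. Without the Atf3_high library that held Y-linked RNA, the 7 other genes kept their sign. The log2 fold changes were then 0.86 for *Ppargc1b*, 0.38 for *Perm1*, 2.07 for *Esrrb*, −1.52 for *Esrrg*, −0.09 for *Nrf1*, 1.05 for *Gabpa* and 0.49 for *Tfam*. The SE of a gene with 10 to 32 UMIs had a median of 1.21 on the log2 scale, against 0.54 for genes with 100 to 200 UMIs such as *Ppargc1a* and *Perm1*. No transcript of another gene matched a transcript of the 10 at 95% identity over 200 bases, among GENCODE transcripts, so no near-identical copy was found at that limit.

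The promoters of the other members were searched for the same motifs, of which 9 of the 10 genes had at least 1 RefSeq window (14 windows in all), *Ppargc1b* being the one with none. Stretches of 40 bases are printed for the 5 genes with a match, to show its place beside the start. The capitals mark the shortened NRF-1 site GCGCANGCG in *Esrra* and *Ppara*, the ETS and GABP site CCGGAAG in *Gabpa* and *Tfam*, and the AP-1 site TGANTCA in *Esrrg*.

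*Esrra* (chr19:6921926-6921965, minus strand): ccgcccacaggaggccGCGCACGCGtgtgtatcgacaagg
*Ppara* (chr15:85735729-85735768, plus strand): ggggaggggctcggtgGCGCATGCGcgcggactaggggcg
*Gabpa* (chr16:84835014-84835053, plus strand): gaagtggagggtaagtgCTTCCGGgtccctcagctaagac
*Tfam* (chr10:71238069-71238108, minus strand): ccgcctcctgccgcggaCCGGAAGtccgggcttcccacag
*Esrrg* (chr1:187608947-187608986, plus strand): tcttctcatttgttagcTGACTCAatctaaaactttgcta

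The sequences are RefSeq, GRCm38.p6, 5′ to 3′ on the strand of the gene. In *Gabpa* the site lay on the opposite strand 93 to 87 bases before the start, and in *Tfam* on the gene's own strand 47 to 41 bases before it. The NRF-1 letters lay 141 to 133 bases before the start in *Esrra* and 31 to 23 bases before it in *Ppara*, where a second match on the other strand was shifted by 1 base. The NRF-1 letters were in 6.25% of all windows, the GABP letters in 8.86%, the AP-1 letters in 7.81% and the estrogen-related receptor element TNAAGGTCA, which no member window held, in 1.28%. No test was made of these shares.

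**Figure D4:**
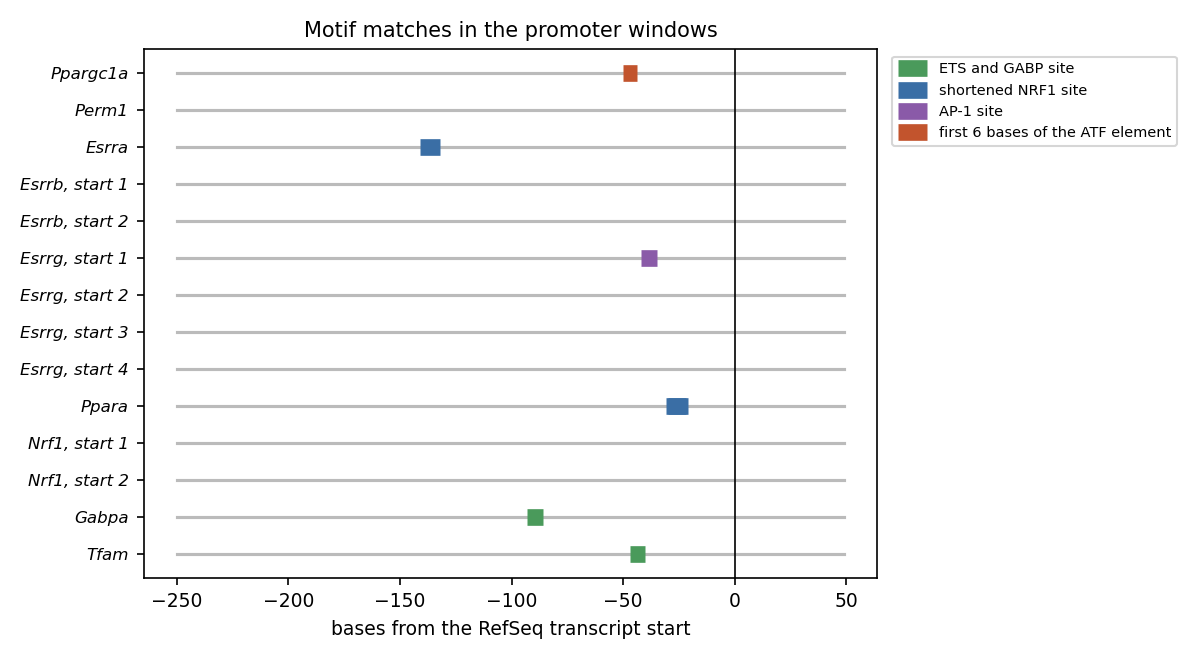
Matches of the motifs in the 14 RefSeq promoter windows of 9 of the 10 genes, as distance in bases from the transcript start (0, vertical line). Grey lines are the windows and coloured blocks the matches on either strand. *Ppargc1a* holds the first 6 bases of the ATF element at −50, *Gabpa* and *Tfam* each hold an ETS and GABP site, and *Perm1*, *Esrrb* and *Nrf1* hold none.

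The genes around the 10 regulators were described in 7 lists with 116 genes, of which 88 were tested and 0 called in edgeR, DESeq2, limma-voom or limma-trend. Of the 88, 42 had values above 0 and 46 below, where 55.2% of all genes tested were above 0. At an unadjusted p under 0.05 in edgeR, 4 were higher and 4 lower, where 3.55% and 2.24% of all genes tested were. The 14 named were the 2 of smallest unadjusted p in each list. Among them, *Ncoa3*, *Rxrb*, *Nr1h2*, *Myc*, *Polrmt*, *Polg* and *Angptl4* reached the minimum of 10 UMIs only through the Atf3_high libraries. Their being tested was thus tied to their being higher there, and this also holds for some genes not named. *Atf2* and *Klf15* reached the minimum only through the Atf3_low libraries, so their being tested was tied to their being higher in those.

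Among nuclear receptor co-regulators, 6 of the 11 tested were higher and 5 lower. Their median of 0.29 had no settled sign, since it was −0.13 without the third Atf3_high library, −0.14 without the first Atf3_low library, −0.17 on thinned counts and −0.40 with filterByExpr. *Lpin1*, which encodes lipin 1, a phosphatidate phosphatase that also acts with PGC-1alpha and PPAR alpha on fatty acid oxidation genes, was close to *Ppargc1a* in level and difference. It had 23, 6 and 31 UMIs in the Atf3_high libraries and 56, 28 and 18 in the Atf3_low libraries, or 117, 72.4 and 144 CPM against 377, 234 and 245 CPM, without overlap. Its log2 fold change was −1.32 with an SE of 0.49 (edgeR unadjusted p = 0.0103, adjusted p = 0.649), and −0.62 when scaled to the cardiomyocyte markers. *Ncoa3*, a steroid receptor coactivator, had 13 of its 14 UMIs in the Atf3_high libraries and a value of 2.77 ± 1.53 (SE), which did not pass. It was 4.79 without the first Atf3_low library, where both libraries left in that group were at 0 and the fitted value depends on the prior count. Among other nuclear receptors, 5 of 11 were higher and 6 lower, with a median of −0.20 that ran from −0.62 to −0.09 when each library was left out (the third and the second Atf3_high library) and was 0.41 with the marker scaling. *Rxrb*, a heterodimer partner of PPAR alpha, stood at 2.65 ± 1.61 (SE) on 11 UMIs. It was 1.55 with limma-voom and 4.96 without the third Atf3_low library, which held the only UMI of that group. *Nr1h2*, the oxysterol receptor LXR beta, stood at 2.66 with 21 of its 25 UMIs in the third Atf3_high library, and at 1.41 with limma-voom.

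Of the known regulators of PGC-1alpha, which include kinases, deacetylases and the factors that act on its promoter, 11 of 18 tested were higher and 7 lower, with a median of 0.09 that was −0.17 without the third Atf3_high library. *Atf2*, a factor that binds the ATF element and is known to activate *Ppargc1a* after phosphorylation by p38, came nearest to the threshold of all 88. It had 4, 3 and 0 UMIs in the Atf3_high libraries and 32, 5 and 22 in the Atf3_low libraries, which alone carried it past the minimum. The log2 fold change was −3.48 with an SE of 0.81 and an interval of −5.11 to −1.85 (edgeR adjusted p = 0.0892). Its adjusted p passed 0.05 without the second Atf3_low library (0.0119) and with no filter on low counts, and it ranged from 0.00327 to 1.00 over the alternatives. *Fbxw7*, which encodes the part of a ubiquitin ligase that marks PGC-1alpha for degradation, had 5, 2 and 7 UMIs against 5, 16 and 15, and stood at −2.06 ± 0.75 (SE; edgeR adjusted p = 0.649). *Creb1* and *Mef2c*, which are known to act on the *Ppargc1a* promoter as well and are named here after their values were seen, stood at −0.06 and 1.10, and neither passed.

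Among other factors of nuclear mitochondrial gene transcription, 6 of 10 were higher and 4 lower, with a median of 0.26 that was −0.04 without the third Atf3_high library and −0.03 without the third Atf3_low library. *Klf15*, a factor of lipid and amino acid use in the heart that works with PPAR alpha, had 0, 0 and 7 UMIs in the Atf3_high libraries and 15, 4 and 9 in the Atf3_low libraries. Its log2 fold change was −2.62 with an SE of 0.97 (edgeR adjusted p = 0.649), and its 7 UMIs in Atf3_high areas were all in the third library. Without that library the fitted value was −6.41, against a group then at 0, and over the libraries left out in turn it ran to −2.01. *Myc*, a growth factor-induced transcription factor, stood at 2.68, with 10 of its 18 UMIs in the second Atf3_high library, and at 1.36 with limma-voom. In the list for mitochondrial DNA transcription and replication, 7 of 9 were higher and 2 lower, with a median of 0.87. Of the 9, 5 had 10 to 32 UMIs, and all genes tested at that level had a median of 0.20. Several of the higher genes, *Polrmt* and *Polg* among them, reached the minimum of 10 UMIs only through the Atf3_high libraries. The count of higher genes and the median of this list are thus tied in part to the filter. *Polrmt*, the mitochondrial RNA polymerase, had 13, 2 and 15 UMIs against 1, 3 and 0, and *Polg*, the mitochondrial DNA polymerase, 7, 3 and 17 against 1, 1 and 1. Their values were 2.19 ± 1.05 and 2.40 ± 1.09 (SE), and neither passed (edgeR adjusted p = 0.833 and 0.819). *Polrmt* was 3.41 without the second Atf3_low library. The median of this list was 0.29 without the first Atf3_high library.

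The targets stood on the other side. Of genes driven by estrogen-related receptors and PGC-1, 2 of 14 tested were higher and 12 lower, with a median of −0.34. Of these 14, 13 had over 200 UMIs, and all genes tested at that level had a median of −0.13, against 0.11 for genes of all levels. The list median ran from −0.52 without the third Atf3_high library to −0.20 without the second. *Slc25a4*, the heart adenine nucleotide carrier, had 4788 UMIs and stood at −0.60 ± 0.31 (SE), and *Atp5b*, the catalytic subunit of ATP synthase, had 2782 UMIs and stood at −0.53 ± 0.32 (SE). Of PPAR alpha targets, 6 of 17 were higher and 11 lower, also with a median of −0.34, which ran from −0.62 without the third Atf3_high library to −0.07 without the third Atf3_low library. Of the 17, 7 had over 200 UMIs, and 2 tested genes, *Acadm* and *Pdk4*, were in both target lists. *Slc27a1*, a fatty acid transport protein, stood at −1.16 ± 0.69 (SE). *Angptl4*, a secreted lipase inhibitor that also responds to low oxygen, went the other way with 7, 17 and 6 UMIs against 2, 1 and 0 and a value of 3.16 ± 1.07 (SE; edgeR adjusted p = 0.649), which was 1.82 without the second Atf3_high library. None of these passed, and the sign of both medians depended on the scaling, since it turned to 0.44 and 0.43 in the fit scaled to the cardiomyocyte markers and to 0.25 and 0.24 with *Myh6* left out of the sum. With that scaling the median of all genes was 0.87 and 0.70, so both lists were below it. A change of scaling moves the lists and all genes nearly alike, so this is no separate result.

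**Figure D5:**
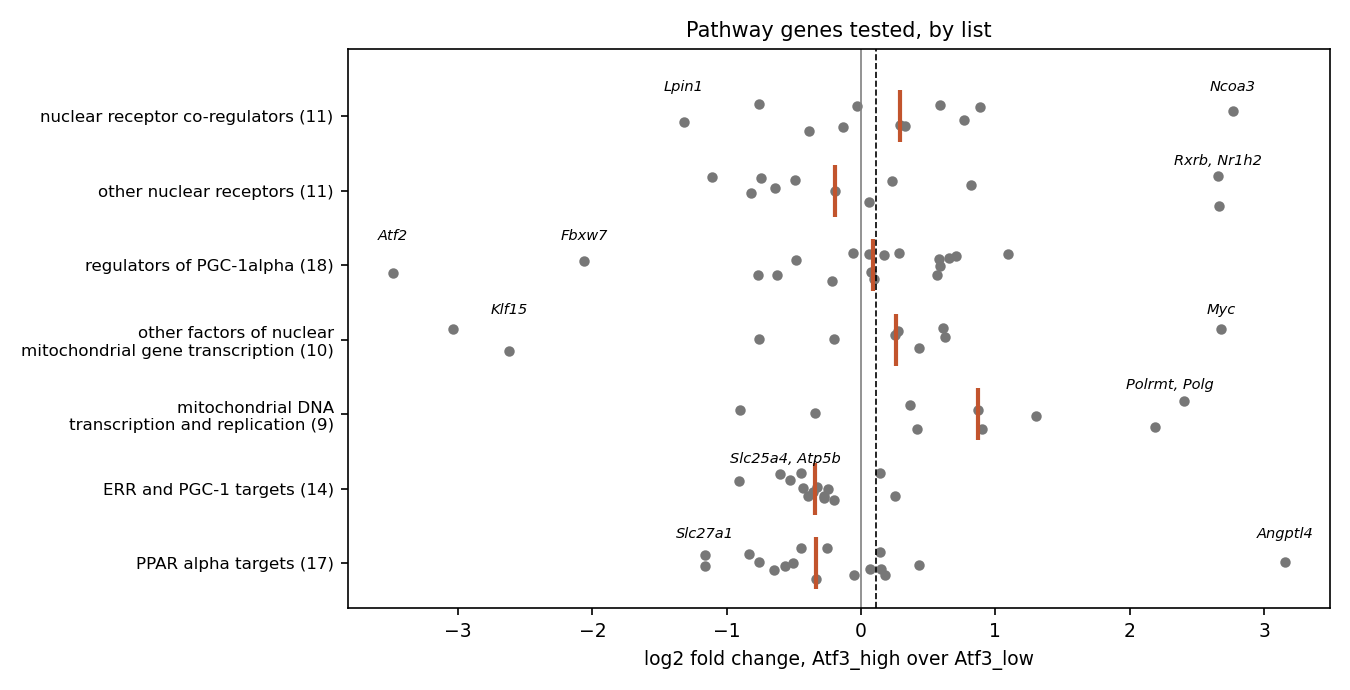
Log2 fold change of Atf3_high over Atf3_low for the tested genes of each of the 7 lists (number tested in parentheses), with vertical bars for list medians, a solid line at 0 and a dashed line at the median of all genes, 0.11. Points are spread vertically only to separate them, and the 2 genes of smallest unadjusted p in each list are named. The medians run from −0.34 for both target lists to 0.87 for mitochondrial DNA transcription and replication. In that last list several genes were tested only through the Atf3_high libraries.

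The genes whose pattern over the 6 libraries was most like that of *Ppargc1a*, among 1023 others with at least 100 UMIs, were *Cox7a1* (Pearson r = 0.98), the muscle form of a cytochrome oxidase subunit, *Myh6* (0.97) and *Apobec2* (0.97), a muscle member of the cytidine deaminase family. The genes most like *Perm1* were *Tie1* (0.99), an endothelial receptor, *Arhgef12* (0.95) and *Gtf2i* (0.92), a general transcription factor. These are r of log2(CPM + 4) over 6 libraries that also share depth and composition, picked as the highest of many, and they are descriptions.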

How the data were processed

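PIC libraries of 3 Atf3_high and 3 Atf3_low areas were prepared by CEL-seq2, which tags the 3′ end of each RNA, so that UMIs do not scale with transcript length and promoter isoforms are not separated. The authors deposited raw UMI counts, 1 column per library. Per the paper's methods and the submitters' processing notes, the authors sequenced on a NovaSeq6000, mapped to GRCm38 with HISAT2 (version 2.1.0) and used UMI-tools (version 1.0.0) and featureCounts (version 1.6.4). The annotation release, strand setting and treatment of reads with several matches are not given in the sources used here, so overlapping genes on opposite strands may not be separated.

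Genes with at least 10 UMIs over the 6 libraries (7665) entered the quasi-likelihood test of edgeR (version 4.0.16, R version 4.3.3; glmQLFit, then glmQLFTest) after TMM scaling. The design had the group alone, and p-values were adjusted over all genes tested by Benjamini-Hochberg. The common biological coefficient of variation was 53.6%. CPM were computed on the scaled size of the tested genes, and 1 UMI was worth 4.66 to 13.6 CPM. Exact permutation tests enumerated all splits of log2(CPM + 4) or of a ratio. The scripts were tested on simulated data. DESeq2 (version 1.42.0), limma (version 3.58.1), other scalings and filters, a replicate block, thinning and leaving out each library were alternatives. Promoter windows were RefSeq (GRCm38.p6), gene positions and transcripts GENCODE M21, and copies were sought with BLAST (version 2.17.0).

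The 10 genes and the lists were chosen with earlier results of these data known. Genes named are the 10, the 2 of smallest unadjusted p in each pathway list, the 3 most like each gene with at least 100 UMIs, *Atf3* and *Ndufs6*. *Ddx3y*, *Eif2s3y*, *Xist*, *Myh7*, *Creb1*, *Mef2c*, *Acadm*, *Pdk4* and the genes that overlap the 10 were named after their values were seen. Marker lists for cardiomyocytes, fibroblasts, endothelial cells, macrophages, mural cells, adipocytes and erythrocytes were summed, and erythrocyte markers had 28 and 30 UMIs in the Atf3_high and Atf3_low libraries.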

Additional observations from a re-analysis of the deposited data

How the results depend on the processing

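No alternative called any of the 10 genes at an adjusted p of 0.05. The 8 tested kept their direction under the alternatives that could test them, except *Nrf1*, which turned from −0.48 to 0.022 on thinned counts and to 0.15 when scaled to the cardiomyocyte markers, and ran from −0.95 to 0.21 when each library was left out. *Ppargc1a* ran from −1.59 to −0.58. The members at an unadjusted p under 0.05 numbered 1, and 0 to 1 when each library was left out. The 0 came without the first Atf3_high library, where *Ppargc1a* was −1.10. With the marker scaling the 1 was *Esrrb*, and there were 0 with *Myh6* left out of the sum. Both marker scalings were chosen after seeing the data.

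Of all genes, 7 were called and 444 had an unadjusted p under 0.05. Calls numbered 3 with limma-trend, 16 with the marker scaling, 24 with the replicate block and 0 to 11 when each library was left out. Unadjusted p under 0.05 was reached by 119 genes with filterByExpr, 249 with DESeq2, 1037 and 753 with the marker scaling with and without *Myh6*, and 282 to 477 when each library was left out. Higher values made up 61.3% of these genes in the TMM fit, 79.8% with library size alone, where the median of all genes was 0.31, and 96.9% and 94.7% with the marker scalings. *Atp5b* turned to 0.26 and 0.074 under the marker scalings, and *Slc25a4* to 0.16 with *Myh6* included. The cause was not tested, beyond the scaling itself.

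The groups share replicate numbers, but the labels do not say that a number marks a shared mouse. For number 2 the sex-linked RNA goes against it. The Atf3_high library held 16 Y-linked and 0 *Xist* UMIs, and the Atf3_low library 0 and 13. Deviations of same-numbered libraries correlated at 0.32, 0.04 and 0.31, and the second Atf3_high library correlated better with the first Atf3_low library (0.07). The replicate block treats every number as a pair, number 2 included, so its p-values rest on a pairing that is not established. With it, *Ppargc1a* was −1.37 (edgeR unadjusted p = 0.00172, adjusted p = 0.27) and *Atf2* passed (edgeR adjusted p = 0.00327), and 0 members were called.

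Of the 8 genes tested, 6 had 16 to 32 UMIs over the 6 libraries.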
